A study of Mus musculus with 13 samples.

Results

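The 10 genes described here are members of the TNF superfamily signalling system in mouse macrophages: the ligands *Tnf*, *Tnfsf9* and *Tnfsf15*, the receptors *Tnfrsf1a*, *Tnfrsf1b*, *Cd40*, *Fas* and *Tnfrsf9*, the adaptor *Traf1* and the feedback regulator *Tnfaip3*. They were taken from a table of 24562 genes by symbol, each read from its RefSeq transcript with the highest total count. The rule uses symbols and no measured value, but the set was drawn up with earlier results of these data known. All 10 were among the 11942 genes that passed the filter on low counts.

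The libraries came from bone marrow-derived macrophages (BMDMs), which are differentiated from marrow progenitors with the supernatant of L929 fibroblasts and here came from female mice on a C57Bl/6J background. Control cells carried floxed *Acly* alleles (Acly fl/fl) without Cre. AclyM-KO cells carried the same alleles together with *Lyz2*-Cre, which is driven by the LysM promoter and deletes the loxP-flanked part of *Acly* in cells of the myeloid lineage. The genotypes thus differ in the presence of *Lyz2*-Cre as well as in *Acly*. No group carried the Cre without floxed *Acly*, so the effects of the Cre and of *Acly* loss cannot be told apart. *Acly* encodes ATP citrate lyase, which makes cytosolic acetyl-CoA from citrate. Both genotypes were stimulated with lipopolysaccharide (LPS), a component of the bacterial outer membrane, for 3 h or 24 h. There were 3 control and 3 AclyM-KO libraries at 3 h, and 4 control and 3 AclyM-KO libraries at 24 h. All groups received LPS, and untreated cells were not analysed here, so none of the values below measures induction over rest. The labels number the libraries of a group as replicates but do not say whether these came from separate mice, so p-values measure the spread between libraries, which may be technical.

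Ligands of the TNF superfamily act as trimers, on the cell surface or after release, and cluster receptors whose cytoplasmic tails recruit TRAF proteins or death domain adaptors. Receptor complexes built on ubiquitin chains activate NF-κB and MAP kinases or, where a death domain is used, caspases, and ubiquitin editors such as A20, the product of *Tnfaip3*, shut them down. In macrophages, LPS acting through TLR4 is a classical trigger of *Tnf* transcription, and the *Tnf* mRNA is short-lived because AU-rich elements in its 3′ untranslated region (UTR) recruit decay proteins such as tristetraprolin.

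These elements are shown because *Tnf* held more copies than any other member. The heptamer TATTTAT occurred 8 times in the 764 bases of the *Tnf* 3′ UTR, 2 times each in those of *Tnfsf9* and *Tnfaip3*, 1 time in that of *Cd40*, and was not found in those of the other 6 members. Per kilobase *Tnf* held 10.5 copies, and *Tnfsf9*, with a UTR of 253 bases, was near it at 7.91. *Tnfaip3* held 1.10 and *Cd40* 0.491 copies per kilobase. At least 1 copy was present in 27.3% of 11048 tested genes with a 3′ UTR, and at least 3 copies in 3.39%. The stretches below are read 5′ to 3′ from GENCODE transcripts on GRCm38, with TATTTAT in capitals. The *Tnf* stretch covers bases 438 to 467 of its UTR and holds 5 copies, some overlapping and some side by side, and the *Tnfsf9* stretch covers bases 88 to 117 and holds 1.
Tnf AU-rich stretch: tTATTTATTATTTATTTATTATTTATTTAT
Tnfsf9 AU-rich stretch: ctcttgtctttaactggacttggTATTTAT

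Promoter windows, from 250 bases before to 50 bases after a start site, were held for 8 members and 10 start sites in the RefSeq table of GRCm38.p6. *Cd40* and *Tnfsf9* had no entry. The κB consensus, the sequence bound by NF-κB, was searched on both strands and occurred in windows of 2 members, *Tnfrsf9* and *Tnfaip3*, against 8.46% of all 32851 windows. The letters TATAAA on the gene's strand occurred in those of *Tnf* and *Tnfaip3*, against 8.32% of all windows. The 250 bases before the start site are printed for *Tnfrsf9*, the member that differed most between genotypes, and for *Tnf* and *Tnfaip3*, which were among the most abundant members at 3 h. Capitals mark the κB matches and TATAAA, and a match is a description of the letters only. In *Tnfrsf9* the match lies in the second of its start sites, where overlapping matches span bases -43 to -33. In *Tnfaip3* κB matches begin at bases -125 and -12 and TATAAA at -225, and in *Tnf* TATAAA begins at -29.
Tnfrsf9, second start site, chr4:150927749-150927998, plus strand: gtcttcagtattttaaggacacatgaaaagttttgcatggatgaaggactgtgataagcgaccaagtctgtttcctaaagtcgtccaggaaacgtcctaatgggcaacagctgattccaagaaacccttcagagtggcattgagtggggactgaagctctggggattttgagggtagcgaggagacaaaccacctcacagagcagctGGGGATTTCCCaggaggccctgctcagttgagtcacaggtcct
Tnfaip3, chr10:19015411-19015660, minus strand: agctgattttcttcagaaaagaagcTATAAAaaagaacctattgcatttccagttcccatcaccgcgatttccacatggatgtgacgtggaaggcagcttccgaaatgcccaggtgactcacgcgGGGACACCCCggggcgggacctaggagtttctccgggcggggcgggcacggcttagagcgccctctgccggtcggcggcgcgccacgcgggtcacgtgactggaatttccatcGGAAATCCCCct
Tnf, chr17:35202008-35202257, minus strand: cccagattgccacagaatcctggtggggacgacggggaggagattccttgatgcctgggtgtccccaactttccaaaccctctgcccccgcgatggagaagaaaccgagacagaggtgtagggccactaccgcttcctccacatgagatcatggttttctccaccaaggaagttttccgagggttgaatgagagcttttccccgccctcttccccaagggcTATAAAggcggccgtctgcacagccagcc

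Library depth was 21274102 to 59577343 counts in 12 of the 13 libraries. Control 24 h replicate 1 held 34467 counts, so that 1 count there stood for 22.4 CPM (counts scaled to a library total of 1000000), and it was left out of the values below. Values with it in the fit are given where it changed the call of a gene named below. *Acly* was 106 CPM in controls and 41.8 CPM in AclyM-KO cells at 3 h, and 110 against 29.9 CPM at 24 h, with the AclyM-KO libraries below every control at both times. Of 8 macrophage markers all were tested, whereas *Cd3d*, *Cd3e* and *Cd3g* reached at most 3 counts in a library and *Ly6g* was at 0. Markers of other cell types were not all absent. *Cd4* reached 642 counts, and 3 of 7 neutrophil markers were tested, *Ngp*, *S100a8* and *S100a9*, at up to 108, 92 and 117 counts. The B cell, dendritic cell and fibroblast lists had 1 tested marker each, and the NK cell list 0. By genotype, 1 of the 8 macrophage markers was called at both times: *Lyz2*, whose locus drives the Cre, was 5240 CPM in controls and 2670 CPM in AclyM-KO cells at 3 h, and 2440 against 921 CPM at 24 h. By the adjusted p alone 5 of the 8 passed at 3 h, the others being *Mertk* (log2 -0.31), *Fcgr1* (-0.26), *Cd14* (-0.15) and *Adgre1* (0.24), and 2 at 24 h, *Lyz2* and *Mertk* (-0.33). The summed macrophage list ranged over 9980 to 10100 CPM in control and 6920 to 7850 CPM in AclyM-KO libraries at 3 h, and over 6030 to 6330 against 4520 to 4630 CPM at 24 h. Nearly all of the genotype difference in this sum was that of *Lyz2*, and the other markers moved either way by far less. The part of these marker differences in the results below was not tested. In bulk RNA a lower share of cells expressing a gene cannot be told apart from less RNA per cell.

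Levels of different genes were compared only per kilobase of transcript. In controls after 3 h LPS, *Tnf* stood first at 589 ± 23.9 CPM per kb (SD, n = 3). *Tnfrsf1b* followed at 382 ± 9.75, *Tnfaip3* at 265 ± 4.97, *Cd40* at 166 ± 5.44 and *Tnfrsf1a* at 74.2 ± 0.754 CPM per kb. *Traf1* at 50.5 and *Tnfsf9* at 48.1 CPM per kb overlapped in their libraries, as did *Tnfsf15* at 30.9 and *Fas* at 30.4, and *Tnfrsf9* was lowest at 1.86 ± 0.261 CPM per kb. The libraries of the other neighbours in this order did not overlap.

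After 24 h the order in controls was different. *Tnfrsf1b* led at 531 ± 21.2 CPM per kb and *Tnf* was second at 303 ± 7.37. *Traf1* followed at 59.7 ± 1.36 CPM per kb, above *Tnfaip3* at 47.0 and *Tnfrsf1a* at 45.3, whose libraries overlapped. *Cd40* stood at 28.2, *Fas* at 16.5, *Tnfsf15* at 13.7, *Tnfsf9* at 3.81 and *Tnfrsf9* at 0.229 CPM per kb. AclyM-KO cells had the same order as controls at 24 h, and at 3 h they differed from controls only in *Tnfsf9* and *Traf1*, whose libraries overlapped there too.

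**Figure D1:**
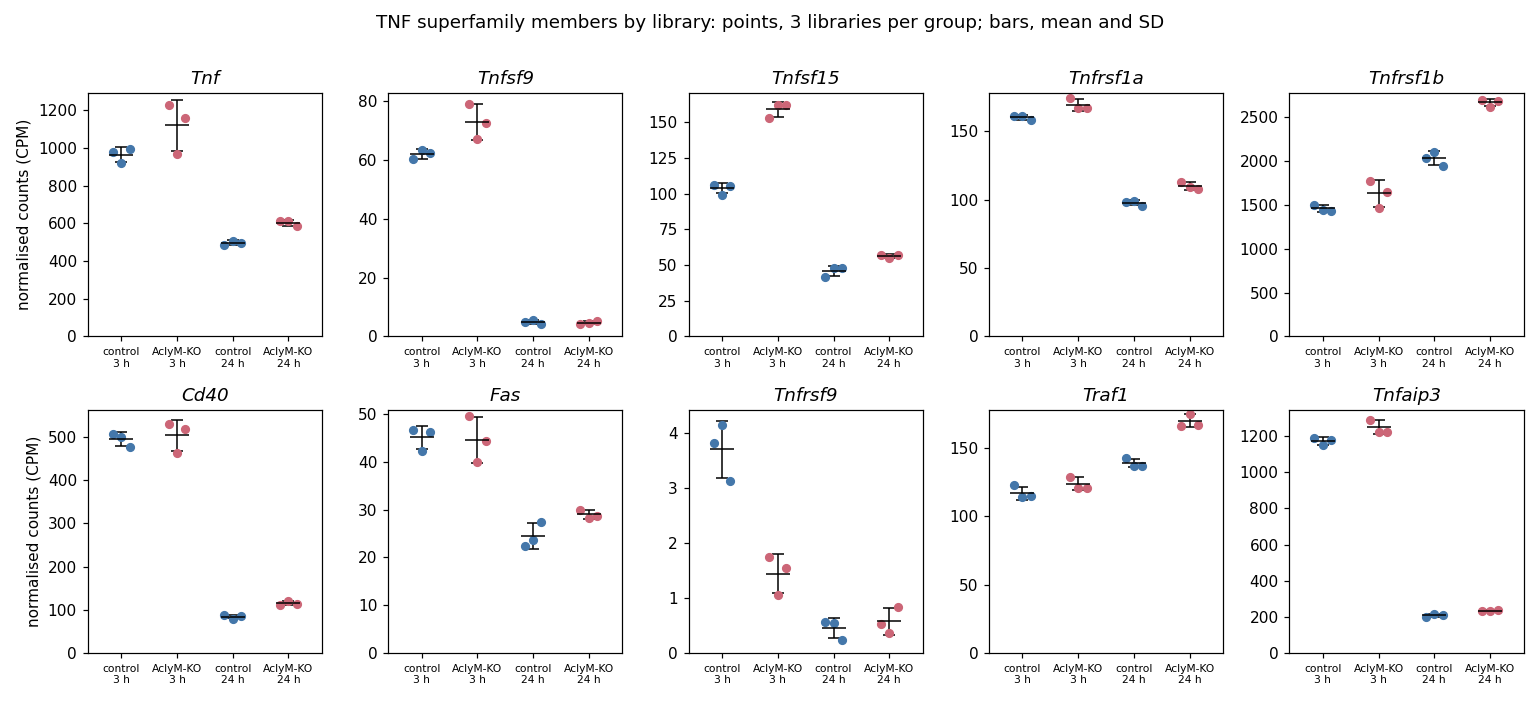
Normalised counts (CPM, linear axes from 0, a separate scale for each gene) of the 10 members in the 4 groups. Points are the 3 libraries of each group, without control 24 h replicate 1, and bars are the mean and SD; *Tnfrsf9* separates the genotypes at 3 h, and *Tnfrsf1b* and *Traf1* are the 2 members that stand higher at 24 h than at 3 h.

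Time after LPS separated the members more than genotype did. In controls 7 of the 10 were called lower at 24 h than at 3 h, at an adjusted p under 0.05 and a log2 fold change beyond 0.75. By the same thresholds 19.5% of all tested genes were called lower and 40.4% called in either direction. No member was called higher by edgeR or DESeq2. At an unadjusted p under 0.05, 2 members were higher, and the share of all genes at that threshold is not given here. In AclyM-KO cells 6 of the 10 were called lower, against 20% of all genes lower and 42.0% in either direction. The median log2 fold change of the members was -1.07 in control and -1.10 in AclyM-KO cells, beside 0.043 and 0.045 over all tested genes. The 3 h and 24 h libraries did not overlap for any of the 10 members in controls, where 77.5% of all genes had groups that did not overlap. When libraries were scaled by their total counts in place of TMM, the median of all genes was 0.32 in control and 0.29 in AclyM-KO cells, *Tnf* and *Fas* were no longer called lower, and *Tnfrsf1b* was called higher in both genotypes.

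Genotype moved the members less. At 3 h 1 of the 10, *Tnfrsf9*, was called, lower in AclyM-KO cells, where 2.01% of all genes were called. At 24 h none of the 10 was called by edgeR or by DESeq2, where 1.38% of all genes were called by edgeR. At an unadjusted p under 0.05 there were 8, a threshold at which the share of all genes is not given here. By the adjusted p alone, 5 members passed at 3 h, 4 of them higher in AclyM-KO cells, against 15.4% of all genes. At 24 h 7 passed, all higher, against 13.9% of all genes. The median log2 fold change of the members was 0.083 at 3 h and 0.28 at 24 h, beside -0.0051 and 0.0053 over all tested genes. Groups did not overlap for 5 members at 3 h, against 30.1% of all genes, and for 8 members at 24 h, against 33.0%. The genotype effect differed between the times for 4 members by the adjusted p of that difference, *Tnfrsf9*, *Tnfrsf1b*, *Cd40* and *Tnfsf15*, against 9.59% of all genes.

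**Figure D2:**
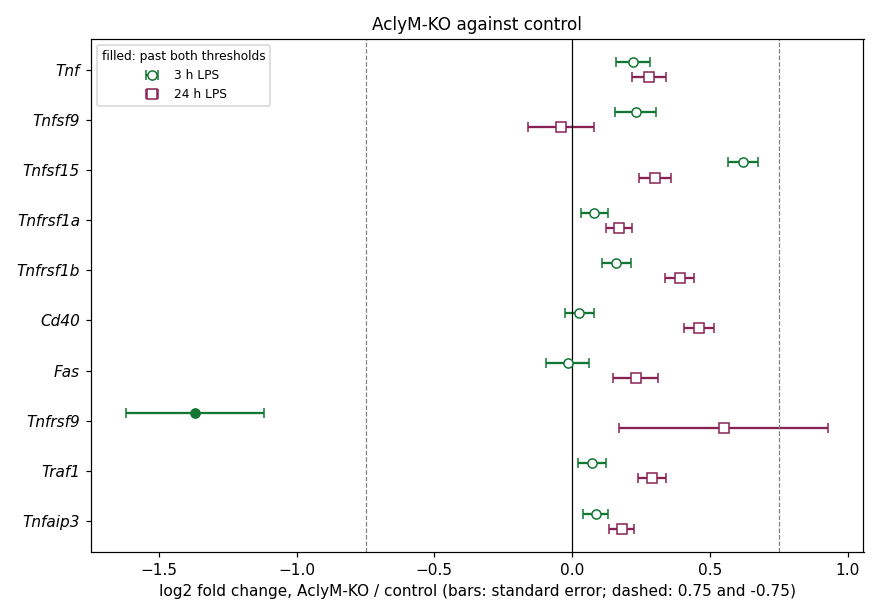
Log2 fold change of AclyM-KO over control (x axis) for the 10 members at 3 h (circles) and 24 h (squares) LPS, with bars for the standard error and dashed lines at 0.75 and -0.75. Only *Tnfrsf9* at 3 h, at -1.37, passed both thresholds (filled), and 9 of the 10 values at 24 h lie above 0, between 0.17 and 0.55, with *Tnfsf9* at -0.039.

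*Tnf* (chromosome 17, 35199381 to 35202007, minus strand of GRCm38) encodes the founding ligand of the family. In controls it was 977, 921 and 997 CPM at 3 h and 484, 508 and 498 CPM at 24 h. In AclyM-KO cells it was 1230, 971 and 1160 CPM at 3 h and 610, 612 and 585 CPM at 24 h. At 3 h replicate 2 of the AclyM-KO group lay within the control range, whereas at 24 h all AclyM-KO libraries were above all controls.

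The fold change of *Tnf* over time was 0.515 in controls (log2 -0.96, SE 0.061, adjusted p = 4.42e-13) and 0.538 in AclyM-KO cells (log2 -0.90, SE 0.061, adjusted p = 1.64e-12), called lower in both. AclyM-KO cells were 1.16-fold higher at 3 h (adjusted p = 0.0172) and 1.21-fold higher at 24 h (adjusted p = 0.00253), both short of the fold threshold. The value at 3 h depended on single libraries: its adjusted p ranged from 2.96e-06 to 0.0868 when each was left out, and missed the threshold without AclyM-KO replicate 1, AclyM-KO replicate 3 or control replicate 2. With control 24 h replicate 1 in the fit the adjusted p at 3 h was 0.0512. The genotype effects at the 2 times differed by 0.063 on the log2 scale (95% interval -0.11 to 0.23).

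*Tnfsf9* (chromosome 17, 57105325 to 57107757, plus strand) encodes 4-1BBL, the ligand of the receptor made from *Tnfrsf9*. It was 60.3, 63.4 and 62.5 CPM in control and 79.1, 67.1 and 72.7 CPM in AclyM-KO libraries at 3 h. At 24 h it was 4.84, 5.71 and 4.18 CPM in control and 4.09, 4.62 and 5.14 CPM in AclyM-KO libraries. The genotypes were apart at 3 h and overlapped at 24 h, and every 24 h library was far below every 3 h library.

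It showed the largest fall over time among the members, to 0.0765 of the 3 h level in controls (log2 -3.71, SE 0.093, adjusted p = 3.76e-25) and to 0.0634 in AclyM-KO cells (log2 -3.98, SE 0.10, adjusted p = 1.67e-25). Its genotype difference was 1.17-fold at 3 h (adjusted p = 0.0282, and between 0.00334 and 0.112 with 1 library left out) and 0.974-fold at 24 h (adjusted p = 0.877, 95% interval of the log2 value -0.27 to 0.20). *Tnfsf9* overlaps the noncoding gene *Gm11110* on the opposite strand, and the strand setting of the counting is not given in the sources used here.

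*Tnfsf15* (chromosome 4, 63727084 to 63745113, minus strand) encodes TL1A, a ligand that costimulates T cells. At 3 h it was 106, 99.3 and 105 CPM in control and 153, 162 and 162 CPM in AclyM-KO libraries. The 24 h values were 41.7, 47.7 and 47.9 CPM in control and 57.1, 55.0 and 56.8 CPM in AclyM-KO libraries. The genotypes did not overlap at either time.

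AclyM-KO cells held 1.54-fold the *Tnfsf15* level of controls at 3 h (log2 0.62, SE 0.055, adjusted p = 2.14e-09) and 1.23-fold at 24 h (log2 0.30, SE 0.058, adjusted p = 0.000536), both below the fold threshold. Of the members that were higher in AclyM-KO cells it had the largest log2 fold change at 3 h, and it ranked 499 of 5846 genes on that side. The genotype effect was smaller at 24 h by 0.32 (log2 -0.32, SE 0.08, adjusted p = 0.00812), a difference that missed the threshold with control 24 h replicate 1 in the fit (adjusted p = 0.0684). Over time it fell to 0.443 of its 3 h level in controls (log2 -1.17, adjusted p = 6.91e-18) and to 0.354 in AclyM-KO cells (log2 -1.5, adjusted p = 1.08e-20).

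Both TNF receptors were well expressed. *Tnfrsf1a* (chromosome 6, 125349362 to 125362484, plus strand) encodes TNFR1, the receptor with a death domain. At 3 h it was 161, 161 and 158 CPM in control and 174, 167 and 167 CPM in AclyM-KO libraries. At 24 h it was 98.3, 98.8 and 95.6 CPM in control and 113, 109 and 108 CPM in AclyM-KO libraries.

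The *Tnfrsf1a* values of the genotypes did not overlap at either time, although the difference was small, at 1.06-fold at 3 h (adjusted p = 0.287) and 1.13-fold at 24 h (log2 0.17, SE 0.048, adjusted p = 0.0136). The adjusted p at 24 h ranged from 0.0341 to 0.0807 with 1 library left out, and missed the threshold without AclyM-KO replicate 1 or control replicate 4. The value over time was 0.609-fold in controls (log2 -0.71, adjusted p = 2.33e-14) and 0.65-fold in AclyM-KO cells (log2 -0.62, adjusted p = 6.47e-13), just short of the fold threshold of 0.75.

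*Tnfrsf1b* (chromosome 4, 145213463 to 145246870, minus strand) encodes TNFR2, which lacks a death domain and signals through TRAF2. It was 1500, 1440 and 1430 CPM in control and 1770, 1460 and 1650 CPM in AclyM-KO libraries at 3 h. The 24 h values were 2040, 2100 and 1940 CPM in control and 2700, 2620 and 2680 CPM in AclyM-KO libraries. Replicate 2 of the AclyM-KO group overlapped the controls at 3 h, and the genotypes were apart at 24 h.

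*Tnfrsf1b* was higher at 24 h than at 3 h by 1.39-fold in controls (log2 0.48, SE 0.053, adjusted p = 2.86e-09) and 1.64-fold in AclyM-KO cells (log2 0.71, SE 0.053, adjusted p = 4.97e-13), below the fold threshold in both. AclyM-KO cells were 1.12-fold higher at 3 h (adjusted p = 0.0406, between 0.000208 and 0.204 with 1 library left out, and 0.386 with control 24 h replicate 1 in the fit) and 1.31-fold higher at 24 h (log2 0.39, SE 0.053, adjusted p = 4.53e-06, and 0.00601 with that library). The difference between these effects, 0.24 on the log2 scale (SE 0.075, adjusted p = 0.0417), was not stable. Its adjusted p was 0.259 with control 24 h replicate 1 in the fit, and ranged from 0.00263 to 0.153 when each of the other libraries was left out.

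The ratio of the receptors, taken per kilobase within each library, moved with time and with genotype. *Tnfrsf1b* stood at 5.14 ± 0.0953 times *Tnfrsf1a* in controls and 5.42 ± 0.433 times in AclyM-KO cells at 3 h (SD, n = 3). At 24 h the ratio was 11.7 ± 0.27 in controls and 13.7 ± 0.265 in AclyM-KO cells. The genotypes overlapped in this ratio at 3 h, and at 24 h the lowest AclyM-KO library (13.5) was above the highest control (12). The ratio of *Tnf* to *Tnfrsf1b* went from 1.54 to 0.571 in controls and from 1.6 to 0.526 in AclyM-KO cells.

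*Cd40* (chromosome 2, 165055627 to 165072948, plus strand) encodes the receptor through which CD40 ligand of T cells activates macrophages and B cells. At 3 h it was 507, 501 and 477 CPM in control and 531, 463 and 518 CPM in AclyM-KO libraries. At 24 h it was 87.0, 79.9 and 85.6 CPM in control and 112, 121 and 114 CPM in AclyM-KO libraries. The genotypes overlapped at 3 h and were apart at 24 h.

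*Cd40* had the smallest adjusted p of the members for genotype at 24 h. AclyM-KO cells held 1.37-fold the control level then (log2 0.46, SE 0.055, adjusted p = 6.25e-07), against 1.02-fold at 3 h (adjusted p = 0.801, 95% interval of the log2 value -0.078 to 0.13). The difference between these effects was 0.43 (SE 0.076, adjusted p = 0.000285), and its adjusted p was 0.0188 with control 24 h replicate 1 in the fit and at most 0.0032 when any 1 of the other libraries was left out. *Cd40* fell over time to 0.17 of its 3 h level in controls (log2 -2.55, SE 0.057, adjusted p = 1.04e-26) and to 0.23 in AclyM-KO cells (log2 -2.12, SE 0.056, adjusted p = 8.94e-25). All 5 of its transcripts in the table held identical counts.

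*Fas* (chromosome 19, 34290666 to 34327772, plus strand) encodes the death receptor of Fas ligand. It was 46.6, 42.3 and 46.3 CPM in control and 49.5, 40.0 and 44.4 CPM in AclyM-KO libraries at 3 h, which overlapped. The 24 h values were 22.3, 23.7 and 27.5 CPM in control and 30, 28.2 and 28.7 CPM in AclyM-KO libraries, which did not.

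The genotype difference of *Fas* passed no threshold, at 0.989-fold at 3 h (adjusted p = 0.928) and 1.17-fold at 24 h (adjusted p = 0.056, 95% interval of the log2 value 0.07 to 0.38). It fell over time in controls to 0.55 of the 3 h level (log2 -0.86, SE 0.079, adjusted p = 5.19e-11). In AclyM-KO cells the value was 0.65 (log2 -0.62, adjusted p = 4.11e-08), below the fold threshold, and the difference between the genotypes was not significant (0.24, adjusted p = 0.184). A second *Fas* transcript was counted apart, with 95 to 122 counts in control and 76 to 83 counts in AclyM-KO libraries at 3 h (log2 -0.48, SE 0.22, adjusted p = 0.146). *Fas* also overlaps *Gm27818* on the same strand.

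*Tnfrsf9* (chromosome 4, 150914562 to 150946102, plus strand) encodes 4-1BB, a costimulatory receptor best known from T cells. Counts were few, so they are given beside the normalised values. At 3 h control libraries held 77, 89 and 63 counts (3.82, 4.16 and 3.14 CPM) and AclyM-KO libraries 34, 24 and 32 counts (1.74, 1.05 and 1.54 CPM). At 24 h control libraries held 14, 13 and 16 counts (0.574, 0.554 and 0.244 CPM) and AclyM-KO libraries 14, 9 and 22 counts (0.526, 0.362 and 0.844 CPM). All AclyM-KO libraries were below all controls at 3 h, and the genotypes overlapped at 24 h.

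*Tnfrsf9* was thus 2.59-fold lower in AclyM-KO cells at 3 h (log2 -1.37, SE 0.25, 95% interval -1.87 to -0.88, adjusted p = 0.000285), and ranked 35 of 6094 genes on that side by size. The call held when each library was left out in turn, with an adjusted p of at most 0.00441. At 24 h the difference was 0.55 (SE 0.38, adjusted p = 0.385), an interval of -0.20 to 1.30 that spans changes in either direction. The effects at the 2 times differed by 1.92 (SE 0.47, adjusted p = 0.00703). Without AclyM-KO 24 h replicate 3 this difference was 1.54 and without control 24 h replicate 4 it was 1.41, and neither passed the threshold.

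Over time *Tnfrsf9* fell to 0.107 of the 3 h level in controls (log2 -3.22, SE 0.29, adjusted p = 1.95e-11) and to 0.407 in AclyM-KO cells (log2 -1.30, SE 0.33, adjusted p = 0.000796). T cell markers were looked at beside this gene: *Cd4*, the 1 marker of 5 that was tested, was 24.2 CPM in control and 16.3 CPM in AclyM-KO cells at 3 h, and 9.45 against 5.44 CPM at 24 h (log2 -0.58 and -0.80, called at 24 h). The summed T cell list ranged from 23.6 to 25.6 CPM in control and 13.6 to 18 CPM in AclyM-KO libraries at 3 h, and from 8.91 to 10 against 5.26 to 5.83 CPM at 24 h, with the 3 *Cd3* genes at or near 0 in all groups. Nearly all of this sum was *Cd4*, so it adds little to the value of that gene, and *Cd8a* reached at most 11 counts in a library. *Tnfrsf9* overlaps *Camta1* on the opposite strand, which held 35 to 38 counts in control and 28 to 38 counts in AclyM-KO libraries at 3 h. The 3 *Tnfrsf9* transcripts in the table held identical counts. Per kilobase, the ligand *Tnfsf9* stood at 26.3 ± 3.95 times *Tnfrsf9* in controls and 80.9 ± 15.8 times in AclyM-KO cells at 3 h, and at 18.5 ± 7.09 and 13.8 ± 5.39 times at 24 h.

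*Traf1* (chromosome 2, 34941750 to 34961772, minus strand) encodes a TRAF adaptor without a RING domain that binds TNFR2, CD40 and 4-1BB complexes. It was 123, 114 and 115 CPM in control and 129, 121 and 121 CPM in AclyM-KO libraries at 3 h, which overlapped. At 24 h it was 143, 137 and 137 CPM in control and 166, 175 and 167 CPM in AclyM-KO libraries, which did not.

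*Traf1* was the other member with higher levels at 24 h, by 1.18-fold in controls (log2 0.24, adjusted p = 8.60e-05) and 1.37-fold in AclyM-KO cells (log2 0.46, adjusted p = 1.68e-09), below the fold threshold. The genotype difference was 1.05-fold at 3 h (adjusted p = 0.379) and 1.22-fold at 24 h (log2 0.29, SE 0.05, adjusted p = 0.000121). The effects at the 2 times differed by 0.22 (SE 0.072, adjusted p = 0.0521).

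*Tnfaip3* (chromosome 10, 19000910 to 19015657, minus strand) encodes A20, a ubiquitin editing enzyme that ends NF-κB signalling. It was 1190, 1150 and 1180 CPM in control and 1290, 1220 and 1220 CPM in AclyM-KO libraries at 3 h. The 24 h values were 200, 215 and 208 CPM in control and 235, 234 and 236 CPM in AclyM-KO libraries. The genotypes were apart at both times by a small margin.

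*Tnfaip3* fell over time to 0.177 of its 3 h level in controls (log2 -2.50, SE 0.048, adjusted p = 3.14e-28) and to 0.189 in AclyM-KO cells (log2 -2.41, SE 0.048, adjusted p = 7.50e-28). AclyM-KO cells held 1.06-fold the control level at 3 h (adjusted p = 0.223) and 1.13-fold at 24 h (log2 0.18, SE 0.046, adjusted p = 0.00804). The adjusted p at 24 h was 0.784 with control 24 h replicate 1 in the fit, and 0.0615 without control replicate 2, the 1 other library whose removal took it past the threshold. Per kilobase, *Tnf* stood at 2.22 ± 0.0592 times *Tnfaip3* in controls and 2.43 ± 0.24 times in AclyM-KO cells at 3 h, and at 6.45 ± 0.0724 and 6.92 ± 0.21 times at 24 h.

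**Figure D3:**
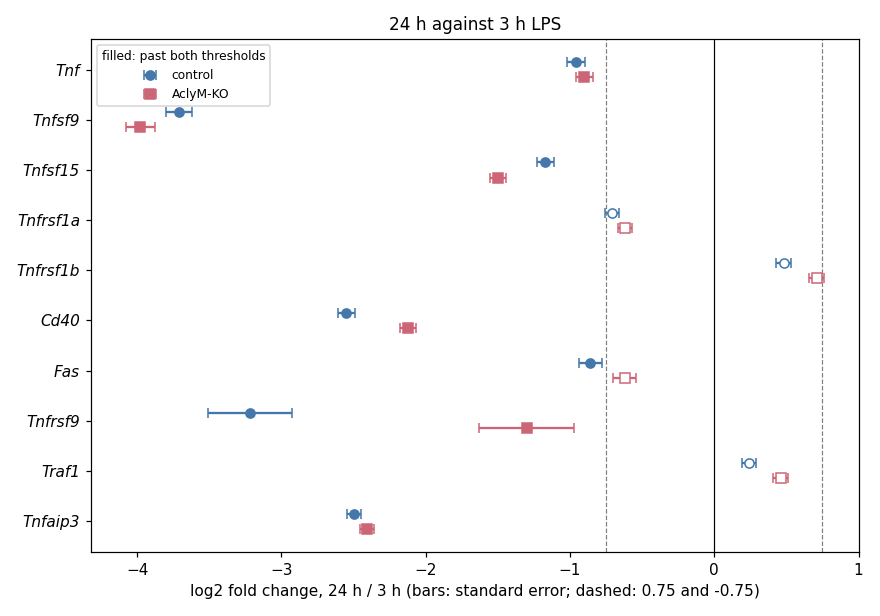
Log2 fold change of 24 h over 3 h LPS (x axis) for the 10 members in control (circles) and AclyM-KO (squares) cells, with bars for the standard error and dashed lines at 0.75 and -0.75. Filled symbols passed both thresholds: *Tnfsf9*, *Tnfrsf9*, *Cd40* and *Tnfaip3* are the 4 lowest in controls, and *Tnfrsf1b* and *Traf1* lie above 0 in both genotypes.

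The wider pathway was read from 5 lists of named genes. Of 18 TNF superfamily ligands, 12 were tested. Of these 1 was called at 3 h, which is 8.33% beside 2.01% of all genes. It was *Tnfsf18*, which encodes GITR ligand and was higher in AclyM-KO cells (log2 1.19, SE 0.35, adjusted p = 0.0185). It held 15, 13 and 9 counts in control and 25, 36 and 26 counts in AclyM-KO libraries. The call was lost without AclyM-KO replicate 2, control replicate 2 or control replicate 3 (log2 1.02 to 1.37 over all fits with 1 library left out). None was called at 24 h by edgeR, where 1.38% of all genes were called. *Tnfsf8*, the ligand of CD30, missed the threshold there (log2 0.98, adjusted p = 0.0546), but was called by DESeq2 and with control 24 h replicate 1 in the fit (adjusted p = 0.0489). Of the 12 ligands 6 had at 24 h an unadjusted p under 0.05, for which the share of all genes is not given here. By the adjusted p alone 4 passed, where 13.9% of all genes did. *Tnfsf12*, the ligand TWEAK, and *Tnfsf15* had a lower genotype effect at 24 h than at 3 h, by 0.30 (adjusted p = 0.0339) for *Tnfsf12*, which was 0.0517 with control 24 h replicate 1 in the fit and was lost in 7 of the 12 fits that left out 1 other library. These 2 genes are 16.7% of the tested ligands, beside 9.59% of all genes. *Tnfsf13*, the ligand APRIL, went the other way from *Tnf* without passing the fold threshold, at -0.67 at 3 h (adjusted p = 1.15e-05) and -0.57 at 24 h (adjusted p = 0.00128). It was named after its values were seen. *Cd40lg* was at 0 in all 12 libraries and *Fasl* reached at most 2 counts, so the ligands of CD40 and Fas were not detectable at this depth.

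Over time the ligands moved mostly down: 10 of the 12 were called lower in controls at 24 h and 1, *Lta*, which encodes lymphotoxin alpha, was called higher (log2 1.16, adjusted p = 0.00451). *Tnfsf14*, the ligand LIGHT (log2 -5.30, SE 0.55), *Tnfsf9*, and *Tnfsf4*, the ligand of OX40 (log2 -3.65, SE 0.16), fell most. *Tnfsf14* and *Lta* were low, at 0 to 49 and 7 to 60 counts in a library. The 11 called are 91.7% of the tested ligands, beside 40.4% of all genes, and their list's median was -1.49, beside 0.043 over all genes.

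Receptors were split over time. Of 29 receptors listed, 28 were in the table and 17 were tested, and in controls 5 were called lower and 4 higher at 24 h, with a median of -0.20. Together these are 52.9% of the tested receptors, beside the 40.4% of all genes called in either direction. *Tnfrsf9*, *Cd40* and *Tnfrsf12a*, the receptor of TWEAK (log2 -2.49, SE 0.30), fell most. *Relt* (log2 3.58, SE 0.29), *Tnfrsf14*, the receptor HVEM (log2 1.25, SE 0.081), and *Tnfrsf21*, the death receptor DR6 (log2 1.23, SE 0.094), rose most. By genotype, *Tnfrsf9* was the 1 receptor called at 3 h, which is 5.88% of those tested beside 2.01% of all genes. At 24 h *Tnfrsf10b*, a receptor of TRAIL (log2 1.13, SE 0.29, adjusted p = 0.00772), and *Tnfrsf26*, a mouse receptor of the same chromosomal family as *Tnfrsf22* and *Tnfrsf23* (log2 0.79, SE 0.12, adjusted p = 0.00037), were higher in AclyM-KO cells. These 2 are 11.8% of the tested receptors, beside 1.38% of all genes. The call of *Tnfrsf10b* was lost without AclyM-KO replicate 1 or control replicate 4 (log2 0.96 to 1.34 over the fits with 1 library left out), and that of *Tnfrsf26* without AclyM-KO replicate 1 or 3 or control replicate 2 (0.68 to 0.92). *Tnfrsf10b* held 14, 24 and 43 counts in control and 52, 35 and 37 counts in AclyM-KO libraries. *Tnfrsf26* was 10.7, 14.2 and 13.8 CPM in control and 25.0, 18.2 and 24.2 CPM in AclyM-KO libraries. Reads of *Tnfrsf22*, *Tnfrsf23* and *Tnfrsf26* may be shared between these related genes.

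Of 20 adaptors and kinases 19 were tested, and none was called by genotype at either time by edgeR or DESeq2. At an unadjusted p under 0.05 there were 4 at 3 h and 7 at 24 h, and 1 and 5 of them passed the adjusted p alone. Of all genes 15.4% and 13.9% passed the adjusted p alone at these times, and their share at the unadjusted p is not given here. The genotype effect was higher at 24 h than at 3 h for 3 of them: *Traf6*, the ubiquitin ligase shared by TLR and CD40 signalling (0.42, SE 0.10, adjusted p = 0.00456), *Tab3*, a subunit of the TAK1 kinase complex (0.54, SE 0.12, adjusted p = 0.00305), and *Map3k5*, the kinase ASK1 (0.41, SE 0.13, adjusted p = 0.0385). The last was 0.059 with control 24 h replicate 1 in the fit and was lost in 7 of the 12 fits that left out 1 other library. The log2 fold changes at 3 h and 24 h were -0.18 and 0.24 for *Traf6* and -0.23 and 0.31 for *Tab3*. For *Map3k5* they were -0.087 and 0.32, and for all 3 genes only the value at 24 h passed the adjusted p. The 3 genes are 15.8% of the list, beside 9.59% of all genes. In controls 4 were called higher at 24 h, led by *Traf3ip3* (2.31), *Edaradd* (2.26) and *Map3k14*, the kinase NIK of the noncanonical NF-κB pathway (1.40). Another 4 were called lower, led by *Tab2* (-1.66), *Traf3ip2* (-1.22) and *Map3k5* (-0.96). The 8 called genes are 42.1% of the list, close to the 40.4% of all genes.

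All 20 ubiquitin editors and cell death regulators were tested, and none was called by genotype at either time by edgeR or DESeq2. At an unadjusted p under 0.05 there were 6 at 3 h and 8 at 24 h, and 6 and 4 of them passed the adjusted p alone. Of all genes 15.4% and 13.9% passed the adjusted p alone at these times, and their share at the unadjusted p is not given here. The genotype effect was higher at 24 h than at 3 h for 4 of the 20, which is 20% beside 9.59% of all genes. These were the A20 partners *Tax1bp1* (0.53, SE 0.071, adjusted p = 6.50e-06), *Tnip2* (0.55, SE 0.12, adjusted p = 0.00418) and *Tnip3* (0.48, SE 0.081, adjusted p = 0.000204), and *Rnf31*, the catalytic subunit HOIP of the linear ubiquitin ligase (0.40, SE 0.079, adjusted p = 0.00109). The log2 fold changes at 3 h and 24 h were -0.25 and 0.28 for *Tax1bp1* and -0.35 and 0.20 for *Tnip2*. For *Tnip3* they were -0.40 and 0.077, and for *Rnf31* -0.026 and 0.37. *Tax1bp1*, *Tnip2* and *Tnip3* passed the adjusted p at 3 h, and *Tax1bp1* and *Rnf31* at 24 h. *Tnip3* was 719, 750 and 712 CPM in control and 582, 520 and 549 CPM in AclyM-KO libraries at 3 h, and 100, 101 and 113 CPM against 104, 108 and 120 CPM at 24 h. The adjusted p of its difference was 0.0533 with control 24 h replicate 1 in the fit. In controls 6 were called lower at 24 h, led by *Tnip3* (-2.79), *Tnfaip3* and *Tnip2* (-1.22), and 1 higher, *Mlkl*, the effector of necroptosis (1.08). The 7 are 35% of the list, below the 40.4% of all genes, and *Birc3*, at -0.75, was not called with control 24 h replicate 1 in the fit.

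The last list held 15 genes of TNF release and mRNA decay, 14 of them tested. None was called by genotype at either time by edgeR or DESeq2. At an unadjusted p under 0.05 there were 5 at 3 h and 6 at 24 h, and 3 and 6 of them passed the adjusted p alone. Of all genes 15.4% and 13.9% passed the adjusted p alone at these times, and their share at the unadjusted p is not given here. *Zfp36*, which encodes tristetraprolin, was 0.26 higher in AclyM-KO cells at 3 h (adjusted p = 0.00674) and 0.36 higher at 24 h (adjusted p = 0.000456), and in controls it fell by 2.42 on the log2 scale from 3 h to 24 h (SE 0.068). Its paralogs *Zfp36l1* and *Zfp36l2* had a lower genotype effect at 24 h than at 3 h, by -1.09 (SE 0.21, adjusted p = 0.000617) and -0.47 (SE 0.10, adjusted p = 0.0017). *Zfp36l1* was 3.77, 4.73 and 4.04 CPM in control and 5.48, 5.51 and 5.34 CPM in AclyM-KO libraries at 3 h. At 24 h it was 4.22, 4.01 and 3.71 CPM in control and 2.52, 2.41 and 2.26 CPM in AclyM-KO libraries, the opposite order. Its genotype difference at 3 h did not pass the adjusted p (log2 0.38, SE 0.14, adjusted p = 0.0705). The difference at 24 h was short of the fold threshold (log2 -0.71, SE 0.15, adjusted p = 0.000947). Of the release machinery, *Adam17*, the TNF converting enzyme, was 0.035 at 3 h (adjusted p = 0.73) and -0.016 at 24 h (adjusted p = 0.886). *Rhbdf1* (-4.66, at 1 to 62 counts) and *Rhbdf2* (-1.66), both cofactors of ADAM17, fell over time in controls, where 7 of the 14 were called lower and 1, *Zfp36l2* (1.42), higher, together 57.1% beside 40.4% of all genes.

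**Figure D4:**
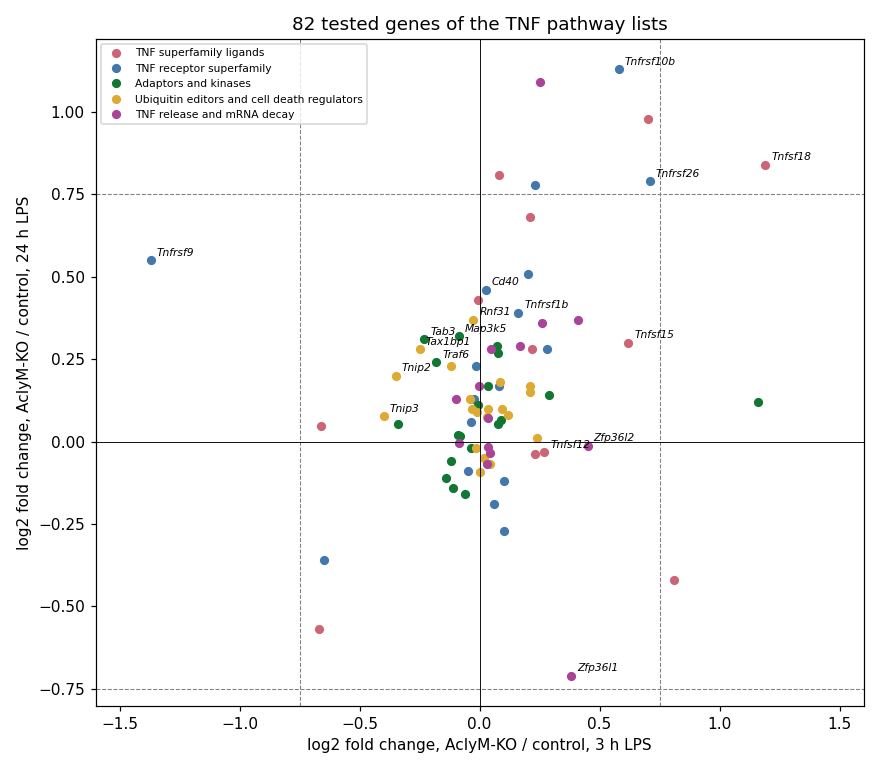
Log2 fold change of AclyM-KO over control at 3 h (x axis) and at 24 h (y axis) for the 82 tested genes of the 5 lists, coloured by list, with dashed lines at 0.75 and -0.75. Named genes were called at a time or in the difference between times: *Tnfrsf9* stands alone at the left at -1.37, *Tnfrsf10b* and *Tnfrsf26* lie above 0.75 at 24 h, and *Zfp36l1* is lowest at 24 h, at -0.71.

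The genes whose pattern over the 12 libraries was most like that of a member were found by Pearson's r of log2 CPM, as a description, since all points share the same libraries and the large change over time. For *Tnfrsf9* they were *Ppp1r9a* (r = 0.977), *Sh3gl1* (0.971) and *Adamtsl4* (0.966), the lowest values of any member. For *Tnf* they were *Pim1*, *Phc2* and *Myo1c*, for *Tnfsf9* *Gprc5c*, *Scap* and *Lifr*, and for *Tnfaip3* *Rnd3*, *Socs7* and *Dab2*. *Tnfsf15* was most like *Mfge8*, *Mmp8* and the chemokine gene *Cxcl1* (0.991 to 0.995). *Cd40* was most like *Src* and the cytokine genes *Il15* and *Cxcl10* (0.998 each), and *Tnfrsf1a* was most like *Socs3*, *Pgs1* and *Prr5l*. For *Tnfrsf1b* the nearest were *Ticam1* (0.994), which encodes the TLR adaptor TRIF, *Traf3* (0.985) and *Ppp4r1l-ps* (0.984). *Fas* was nearest to *Ppm1a*, *Arih1* and *Mir466p*, and *Traf1* to *Tap2*, *Dtnb* and *Tcirg1*.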

How the data were processed

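The 13 RNA-seq libraries of BMDMs were grouped by the genotype, time and replicate number in their labels. The authors prepared mRNA libraries with a KAPA kit, converted reads with CASAVA 1.8.2 and aligned them to mm10 with STAR 2.5.2b per the submitters' processing notes, and used HOMER to count tags in RefSeq transcripts. The table they deposited holds raw counts, whole numbers without normalization, for 35745 transcripts, and the strand setting of the counting is not given in the sources used here. Overlapping genes may therefore share tags. Symbols were found for 35628 transcripts, 35440 of them in a RefSeq gene table and the rest in GENCODE's annotation of GRCm38.

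Counts were normalised by TMM and filtered with filterByExpr in R 4.3.3, which left 19621 transcripts of 11942 genes. A robust quasi-likelihood model in edgeR 4.0.16 was fitted to 12 libraries in 4 groups, without control 24 h replicate 1, whose 34467 counts leave at most 49 for a member. Adjusted p-values follow Benjamini and Hochberg, over the whole table of tested transcripts. A gene was called at an adjusted p under 0.05 and a log2 fold change beyond 0.75, and a difference of the genotype effect at the adjusted p alone. Intervals of 95% are normal intervals around the estimate. CPM are counts scaled to a TMM library size of 1000000, as mean and SD.

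The text names all 10 members, genes of 5 pathway lists that were called by genotype or in its difference between times, the 3 largest changes over time per list and direction, and the 3 tested genes most correlated with each member (log2 of CPM + 0.5). Other names were added after their values were seen: *Tnfsf13*, *Tnfsf8*, *Cd40lg*, *Fasl*, *Zfp36* at the genotype comparison, *Adam17*, *Birc3*, the macrophage markers by genotype, and genes overlapping a member. The neutrophil markers *Ngp*, *S100a8* and *S100a9* were named because they were tested. The members and lists were chosen with earlier results of these data known. Alternatives were all 13 libraries, DESeq2 1.42.0, other scalings, filters and fold thresholds, only the compared libraries, 1 transcript per gene before the fit, a replicate block, and leaving out each replicate. In simulated counts of the 3 h comparison on 19340 transcripts, 89.7% of 97 changes of log2 1 and 97% of 100 changes of log2 1.5 were recovered with 0 false calls. Apart from these changes each transcript had the same mean level in all 4 groups, and a call needed both thresholds. The simulation held no smaller changes and was not split by count level. It therefore does not bear on differences read by the adjusted p alone or on genes with few counts.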

Additional observations from a re-analysis of the deposited data

Results flagged for a closer look

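Among the 4 control libraries at 24 h, replicate 1 stood apart from the others for 7 of the 10 members, further than Dixon's limit for a group of 4. Chance passes that limit in about 1 of 20 groups only where the values are equally precise. Here they were not, since 1 count in replicate 1 stood for 22.4 CPM, so that rate does not apply. The share of all genes past the limit is not given here. The values of replicate 1 were 672 CPM for *Tnf* (30 counts), 22.4 CPM for *Tnfsf9* (1 count), 919 CPM for *Tnfrsf1b* (41 counts), 291 CPM for *Cd40* (13 counts), 44.8 CPM for *Traf1* (2 counts), 1100 CPM for *Tnfaip3* (49 counts) and 224 CPM for *Tnfsf15* (10 counts). For *Tnf*, *Tnfsf9*, *Cd40*, *Tnfaip3* and *Tnfsf15* this was above the other 24 h controls, and for *Tnfrsf1b* and *Traf1* below them, the side on which the 3 h controls lay for all 7. The library holds 34467 counts in all, and the source of its values was not tested.

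The genotype effect differed between the 2 times, by the test of the difference itself, for *Tnfrsf9* (log2 1.92, adjusted p = 0.00703), *Cd40* (0.43, adjusted p = 0.000285), *Tnfsf15* (-0.32, adjusted p = 0.00812) and *Tnfrsf1b* (0.24, adjusted p = 0.0417). For *Tnfrsf9* the estimate went from -1.37 at 3 h to 0.55 at 24 h, for *Cd40* from 0.026 to 0.46, for *Tnfrsf1b* from 0.16 to 0.39 and for *Tnfsf15* from 0.62 to 0.30. Of these, *Cd40* alone held with control 24 h replicate 1 in the fit, under the replicate block and without each other library in turn.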

How the results depend on the processing

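Of 830 log2 fold changes of members recomputed under an alternative, 774 kept their direction and their side of the threshold, 23 newly passed it, 25 no longer passed it and 8 turned direction. The cause was not tested, except that dropping or raising the fold threshold changes the counts by construction. With no fold threshold, called genes rose from 240 to 1844 at 3 h, from 165 to 1659 at 24 h, from 4825 to 8949 over time in control and from 5011 to 9037 in AclyM-KO cells. Members called were then 5 at 3 h, 7 at 24 h and 10 over time in AclyM-KO cells, and pathway list genes 20, 25, 66 (control, time) and 70 (AclyM-KO, time). Beyond a log2 fold change of 1, 145 genes were called at 3 h and 71 at 24 h, with 1 list gene at 24 h. With all 13 libraries, 2 members and 9 list genes differed in genotype effect between times, *Tnfrsf1b* (0.30) and *Tnfsf15* (-0.34) being lost among the members, and *Tnfsf8* was gained at 24 h (0.98). Leaving out 1 replicate gave 2 to 6 such members, and 1 to 4 list genes at 3 h and 1 to 2 at 24 h. The members not passing were *Tnfrsf9* without AclyM-KO 24 h replicate 3 (1.54) or control 24 h replicate 4 (1.41), and *Tnfrsf1b* in 10 of these fits (0.15 to 0.25).

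Of the 8 estimates that turned direction, 7 came from leaving out a replicate and started near 0: *Cd40* at 3 h (-0.012 to 0.088 with 1 replicate left out), *Fas* at 3 h (-0.093 to 0.063), *Tnfsf9* at 24 h (-0.19 to 0.065) and the time difference of *Tnf* (-0.047 to 0.12). Those beyond 0 on the other side were -0.012 for *Cd40*, 0.063, 0.014 and 0.0067 for *Fas*, 0.044 and 0.065 for *Tnfsf9* and -0.047 for *Tnf*. The *Tnfrsf1b* time difference was also lost with DESeq2 (0.23), RLE size factors (0.23) and total counts (0.21). Scaling by total counts, added after the data had been seen, also moved *Tnf* (-0.68 and -0.65) and *Fas* (-0.59 in control) inside the threshold over time and *Tnfrsf1b* (0.75 and 0.96) beyond it, and 30 of 40 levels by more than their SD.

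Same-numbered libraries of the 2 genotypes were compared within each time, by their deviations from the group means. They correlated at -0.0123 to 0.0426 at 3 h and -0.0101 to 0.0908 at 24 h. Same-numbered libraries of the 2 times were not compared, and whether libraries of a number share an origin was not tested. Under the replicate block 2 members differed in genotype effect between times, *Tnfrsf9* (1.37) and *Tnfrsf1b* (0.18) being lost, *Tnfrsf9* at 24 h, the remaining estimate that turned direction, went from 0.55 to -0.01, and no other call of a member changed. *Tnfrsf9*, at few counts, is the member that depth limits most.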

Other observations

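The 3 AclyM-KO libraries at 3 h differed among themselves in the same sense for most members. Replicate 1, in which residual *Acly* was lowest at 37.7 CPM, held the highest value of its group for 9 of the 10 members, the exception being *Tnfsf15*. Replicate 2, in which *Acly* was highest at 46.2 CPM, held the lowest value for 7 of them. Scaled by total counts, the numbers were 8 and 6, and *Acly* was 33.9 and 42.9 CPM. With 3 libraries this is a description with no test, and what the libraries differ in was not tested. The shares of all tested genes that were highest or lowest in these replicates are not given here. All members were read from the same 3 libraries, so the counts of members are not separate observations and measure no relation with *Acly*.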
